A study of Mus musculus with 6 samples.

Results

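The 10 genes described here belong to the YAP-TEAD arm of the Hippo pathway: the coactivators Yap1 and Wwtr1 (which encodes TAZ), the DNA-binding partner Tead1, and Cyr61, Ctgf, Ankrd1, Amotl2, Lats2, Ajuba and Ptpn14, which are targets or regulators of that complex. They were taken by gene name from the 34745 genes counted in a murine lung cancer cell line. Each name was found once in the counts, and all 10 were among the 10046 genes that passed the filter (a sum of over 500 counts) and were tested. The study compared 889 cells (a C57BL/6 lung cancer line) carrying Cas9 and a control sgRNA (sg-con, 3 libraries) with 889 cells carrying Cas9 and an sgRNA against kiaa1522 (sg-kiaa1522, 3 libraries, given in the labels as KIAA1522-downregulated), to find genes that depend on KIAA1522. Both groups carry lentiviral Cas9, and the sg-con construct targets EGFP. The sources do not state which kiaa1522 sgRNA the sequenced cells carried, or whether they were a pool or a clone. They also do not say that the libraries came from separate cultures, so the p-values measure the spread between these libraries, which may be technical.

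YAP and TAZ do not bind DNA themselves and reach their target genes through TEAD factors. The Hippo kinases MST and LATS, helped by SAV1 and MOB1, phosphorylate YAP and TAZ and hold them in the cytoplasm, so the activity of the pathway depends largely on where the proteins are, which RNA counts do not measure. In lung adenocarcinoma the pathway is known for its links to cell contact, matrix stiffness and drug tolerance. Several targets are themselves brakes on YAP, among them LATS2, AMOTL2 and PTPN14, while AJUBA restrains the LATS kinases.

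The libraries held between 16581000 and 18559660 counts in sg-con and between 12220001 and 18609376 counts in sg-kiaa1522. Levels are given as CPM, read counts scaled to the library total after normalization by the trimmed mean of M values (TMM). For kiaa1522 (C77080), the gene targeted, the sg-con libraries held 127, 130 and 124 CPM and the sg-kiaa1522 libraries 210.4, 203 and 216 CPM, a log2 fold change (log2FC, sg-kiaa1522/sg-con) of 0.73 (edgeR q = 9.1e-05, the p-value adjusted over all tested genes), so that its mRNA was higher in every library labelled sg-kiaa1522 than in every sg-con library. These libraries are therefore called by their label. Edits made by Cas9 need not lower the mRNA of a gene, and the protein was not measured by these counts. Of the epithelial markers, Krt8, Krt18, Krt19 and Cdh1 were tested and all 4 were lower at a q of 0.05 or less, as were 26.3% of all tested genes. Cdh1 was at 36.6% of the sg-con level (log2FC -1.45, edgeR q = 5.1e-05). Krt18 passed only narrowly (log2FC -0.19, edgeR q = 0.0496), and its groups overlapped. Krt8 (-0.40) and Krt19 (-0.73) lay between them, and Epcam was at 0 in all 6 libraries. The epithelial list summed to between 3810 and 4575 CPM in sg-con and between 3218 and 3498 CPM in the libraries labelled sg-kiaa1522. Of the 7 fibroblast markers, 2 were tested, Col1a2 and Pdgfrb, both lower, and the list summed to between 467 and 486 CPM in sg-con and between 167 and 198 CPM in the libraries labelled sg-kiaa1522. The lung epithelial list (2 of 5 tested, Nkx2-1 and Sftpb) summed to between 43.4 and 97.4 CPM in sg-con and between 24.8 and 61.3 CPM in the libraries labelled sg-kiaa1522. Sftpb was lower (log2FC -0.67, edgeR q = 0.012), and Nkx2-1, which did not pass, varied within the groups, with 55.7, 59.1 and 13.6 CPM in sg-con and 10.9, 9.49 and 39.5 CPM in the libraries labelled sg-kiaa1522. The endothelial list had at most 1.66 CPM in any library, with none of its genes tested. Of the leukocyte markers, Cd68 was higher, at between 1.14 and 1.24 CPM in sg-con and between 10.1 and 12.8 CPM in the libraries labelled sg-kiaa1522, while Cd3e was at 0 in all 6 libraries and Itgam and Ptprc were under the filter. The part of these marker levels in the results below was not tested, and in bulk RNA fewer cells of a type and less RNA per cell cannot be told apart.

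The sequences that TEAD factors are known to bind were looked for in the promoters, because most of the members are known TEAD targets. RefSeq promoter windows (GRCm38.p6, 250 bases before to 50 after a transcript start) were matched for 8 of the 10 members, all except Tead1 and Ctgf. The TEAD motif searched was GGAATG on either strand, which reads CATTCC on the other strand. It was found in a window of each of the 8 matched members, and in 16.6% of all 27025 genes with a window (14.7% of 32851 windows). Lats2 and Wwtr1 each have 2 windows. The matches are shown here because they are the feature that the members with a window share. Each line gives 30 bases on the gene's own strand with the motif in capitals.

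Cyr61, chr3:145650071-145650100, minus strand: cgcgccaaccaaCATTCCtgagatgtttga
Ankrd1, farther match, chr19:36120037-36120066, minus strand: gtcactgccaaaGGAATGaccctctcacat
Ankrd1, nearer match, chr19:36119950-36119979, minus strand: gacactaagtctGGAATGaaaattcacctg
Amotl2, chr9:102717727-102717756, plus strand: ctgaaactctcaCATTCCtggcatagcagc
Lats2, chr14:57746102-57746131, minus strand: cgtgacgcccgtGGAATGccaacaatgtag
Ajuba, farther match, chr14:54577830-54577859, minus strand: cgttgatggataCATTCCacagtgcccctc
Ajuba, nearer match, chr14:54577808-54577837, minus strand: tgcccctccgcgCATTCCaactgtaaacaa
Yap1, chr9:8004720-8004749, minus strand: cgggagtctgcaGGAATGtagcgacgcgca
Wwtr1, chr3:57576029-57576058, minus strand: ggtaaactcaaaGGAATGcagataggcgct
Ptpn14, chr1:189728110-189728139, plus strand: cctccccggacgCATTCCtggcccgcccag

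Ankrd1 and Ajuba had 2 matches each and the other genes had 1 match each, which in Wwtr1 fell in both windows. In Ankrd1 the matches began 210 and 123 bases before the transcript start and lay on the gene's strand, and in Ajuba they began 186 and 164 bases before it and lay on the other strand. The match in Cyr61 began 103 bases before the start and that in Amotl2 65 bases before it. The distance was 141 bases in Yap1, 146 in Ptpn14, and 170 or 136 from the respective start in Wwtr1. The match in Lats2 was the exception in position, since it began 5 bases into the transcript of 1 of its 2 starts, and the other Lats2 window had none. The Amotl2 match lies in an exon of another Amotl2 transcript, the Ankrd1 window overlaps an Ankrd1 exon, and the Yap1 window overlaps an exon of Gm45494. A match is a description of these letters and not evidence of binding. Every matched member held the motif, those whose mRNA fell and Yap1, Wwtr1 and Ptpn14 alike. Of the other pathway genes, 11 of 34 with a window held it, among them 4 of 6 TEAD partners, 2 of 5 core kinases, 2 of 9 upstream regulators, 1 of 3 junction scaffolds, 2 of 10 YAP/TAZ targets and 0 of 1 CCN genes. The AP-1 motif TGANTCA and the CArG box bound by serum response factor were found in none of the 8 members, against 8.97% and 1.81% of all genes with a window.

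**Figure D1:**
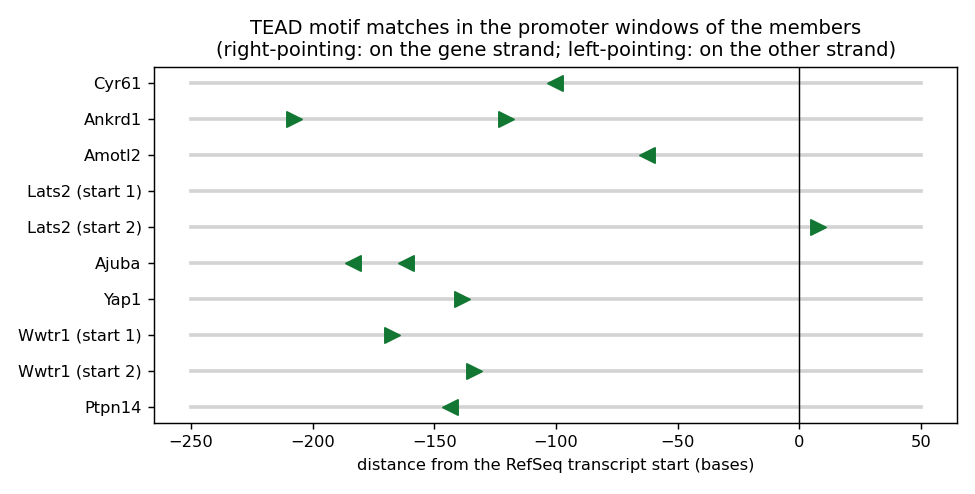
Positions of TEAD motif matches (triangles) in the promoter window of each matched member, with the distance from the RefSeq transcript start in bases on the horizontal axis and the grey line marking the 300 bases searched. All but 1 match lie before the start, between 65 and 210 bases from it, and the Lats2 match lies just after it.

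The whole promoter window of Cyr61 before the start, chr3:145649986-145650235 on the minus strand, is given because Cyr61 was the most abundant member. Its single TEAD motif is in capitals.

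Cyr61 promoter: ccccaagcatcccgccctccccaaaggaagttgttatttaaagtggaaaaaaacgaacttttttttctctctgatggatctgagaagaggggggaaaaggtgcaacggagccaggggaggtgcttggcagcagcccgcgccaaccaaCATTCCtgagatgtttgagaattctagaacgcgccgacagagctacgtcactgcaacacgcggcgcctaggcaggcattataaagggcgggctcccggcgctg

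Of the 10 members, 6 fell in the libraries labelled sg-kiaa1522 (Ctgf, Cyr61, Ajuba, Ankrd1, Lats2 and Amotl2), 1 rose (Yap1) and 3 did not pass the test (Wwtr1, Tead1 and Ptpn14). Genes were tested by the quasi-likelihood method of edgeR, and passed when q, the p-value adjusted by Benjamini-Hochberg over all 10046 genes, was 0.05 or less. By that rule 26.3% of all tested genes fell and 26.3% rose, 52.5% in all. The median log2FC of the members was -0.52, against -0.0067 for all tested genes. With the threshold of the study's methods, which adds a log2FC of 1 or more in either direction, 1 member was lower (Ctgf) and 0 were higher, against 4.34% and 2.74% of all tested genes. The groups did not overlap for 7 members, 6 lower and 1 higher, and did not overlap for 31.1% of all tested genes in the lower and 30.6% in the higher direction.

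**Figure D2:**
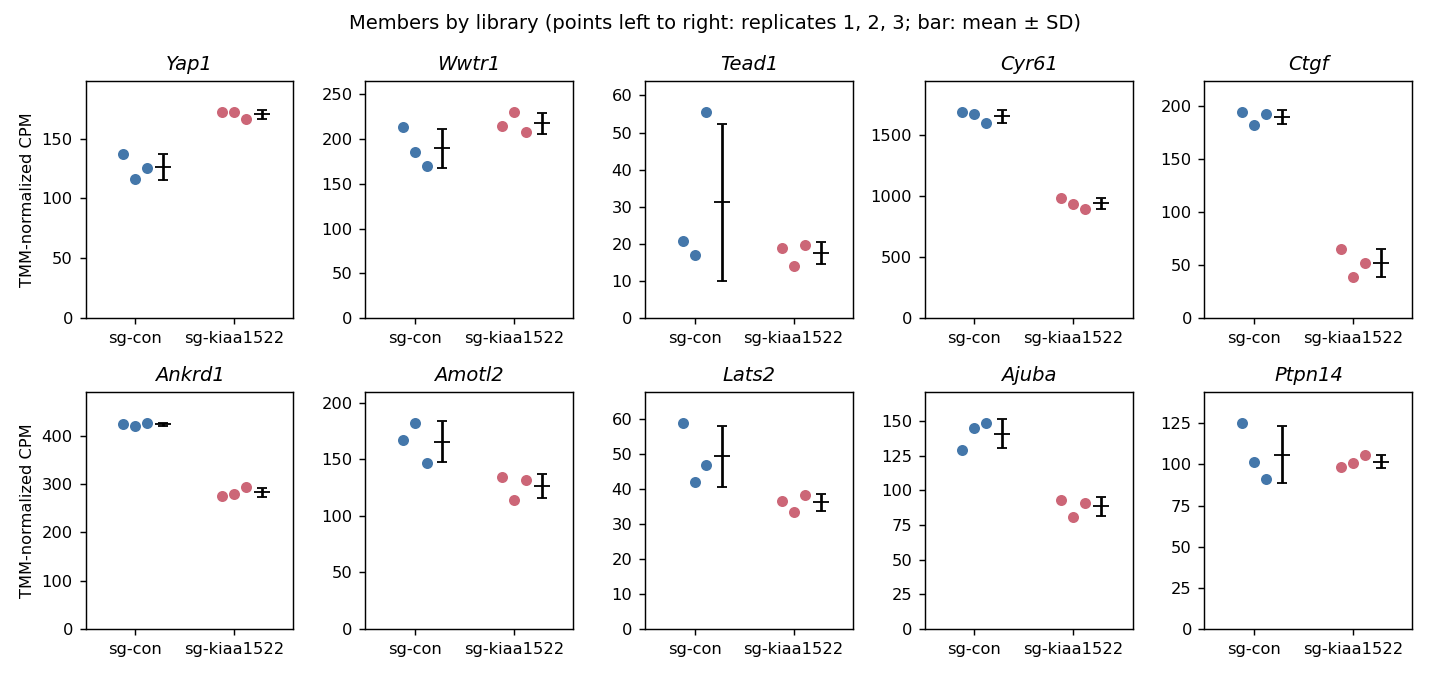
TMM-normalized CPM of each member (vertical axes, from 0) in the 3 sg-con (blue) and 3 sg-kiaa1522 (red) libraries, with the mean and SD beside the points. Ctgf, Cyr61 and Ankrd1 show groups that lie well apart, whereas 1 sg-con library of Tead1 lies far above all others.

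The matricellular gene Ctgf, which codes for a secreted protein of the CCN family that binds integrins and growth factors, fell most. It had 195, 183 and 193 CPM in sg-con replicates 1, 2 and 3 and 65.4, 39.0 and 52.5 CPM in sg-kiaa1522 replicates 1, 2 and 3. Every sg-con library thus held more Ctgf than any library labelled sg-kiaa1522, and the latter varied more among themselves. The mean fell from 190.1 ± 6.53 to 52.3 ± 13.2 CPM (SD, n = 3), with log2FC -1.87 (standard error, SE, 0.17, edgeR q = 1.5e-04), or 27.4% of the sg-con level. Only 61 of the 10046 tested genes had a lower log2FC than Ctgf, which had place 62 from the bottom. Ctgf (ENSMUSG00000019997) lies on the plus strand of chromosome 10, chr10:24595442-24598683 in GRCm38. An antisense gene, Gm15270, shares 23.2% of its exon length but had 25 counts in all 6 libraries together.

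Cyr61, another secreted CCN protein and an immediate-early gene, was the most abundant member. Its values were 1686, 1671 and 1592 CPM in the sg-con libraries and 986, 934 and 896 CPM in the libraries labelled sg-kiaa1522. The groups lay far apart compared with the spread inside each. Cyr61 fell from 1650 ± 50.3 to 939 ± 45.3 CPM (SD, n = 3), with log2FC -0.81 (SE 0.058, edgeR q = 6.8e-05), which is 56.9% of the sg-con level. The gene (ENSMUSG00000028195) is on the minus strand of chromosome 3, chr3:145646976-145649981. The amount of Cyr61 per Ctgf, compared per exon length, went from 12.3 ± 0.633 to 26.5 ± 6.62 (SD, n = 3) without overlap between the groups. With the mean transcript length in place of the summed exons, the ratio was 7.501 ± 0.386 and 16.2 ± 4.03 (SD, n = 3), so that its size depends on the length used and its direction did not.

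Ankrd1 encodes a nuclear ankyrin repeat protein known from muscle and from cells under mechanical strain, and its mRNA is a usual readout of YAP. It had 424, 420.3 and 427 CPM in sg-con and 275, 279.6 and 294 CPM in the libraries labelled sg-kiaa1522. The sg-con libraries were nearly equal and all above the others. The mean fell from 424 ± 3.35 to 283 ± 9.76 CPM (SD, n = 3), with log2FC -0.58 (SE 0.054, edgeR q = 1.6e-04). Ankrd1 (ENSMUSG00000024803) lies on chromosome 19, chr19:36111961-36120099. The summed level of Cyr61, Ctgf and Ankrd1 was 2645 ± 111 TPM (transcript abundance, scaled by exon length and library) in sg-con and 1590.0 ± 56.0 TPM in the libraries labelled sg-kiaa1522 (SD, n = 3), with the lowest sg-con library at 2546 and the highest library labelled sg-kiaa1522 at 1653 TPM. With the mean transcript length the sums were 1545 ± 58.4 and 891 ± 28.8 TPM (SD, n = 3).

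Of the members that act back on the pathway, 3 fell, each by less than Ctgf and Cyr61. Ajuba, whose LIM protein binds and restrains the LATS kinases, had 129, 145 and 149 CPM in sg-con and 93.3, 81.0 and 90.9 CPM in the libraries labelled sg-kiaa1522. Its groups did not overlap, and its log2FC was -0.67 (SE 0.084, edgeR q = 5.7e-04). Lats2, the kinase that phosphorylates YAP and TAZ, had 58.8, 42.0 and 46.9 CPM in sg-con and 36.5, 33.4 and 38.3 CPM in the libraries labelled sg-kiaa1522. The groups lay close together but did not overlap, and the log2FC was -0.45 (SE 0.13, edgeR q = 0.024).

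Ajuba (chr14:54567472-54577558) and Lats2 (chr14:57689662-57758388) both lie on chromosome 14, and the median log2FC over its 343 tested genes was -0.38. Against the median of their own chromosome, Ajuba still fell (log2FC -0.30, edgeR q = 0.021), and Lats2 did not pass the test (-0.070, edgeR q = 0.69). Lats2 shares 42.4% of its exon length with Gm49361, a gene on the same strand that was not analysed here, so the assignment of its reads is uncertain.

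Amotl2, an angiomotin that tethers YAP at cell junctions, had 168, 183 and 146 CPM in sg-con and 134, 115 and 132 CPM in the libraries labelled sg-kiaa1522. The groups were adjacent without overlap. Its log2FC was -0.38 (SE 0.100, edgeR q = 0.014), and the fall of Amotl2 did not pass the test when sg-kiaa1522 replicate 2 was left out (edgeR q = 0.054), nor did that of Lats2 without sg-kiaa1522 replicate 1 (edgeR q = 0.058) or 2 (edgeR q = 0.084). Amotl2 lies at chr9:102716672-102733418. Ptpn14, a phosphatase that binds YAP and is itself a YAP target, had 125, 102 and 91.0 CPM in sg-con and 98.3, 101 and 106 CPM in the libraries labelled sg-kiaa1522. All 3 of the latter lay within the range of sg-con. The log2FC was -0.061 (95% interval -0.33 to 0.21, edgeR q = 0.68). Its sign changed without sg-con replicate 1 (0.068) and against the median of chromosome 1 (0.15).

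**Figure D3:**
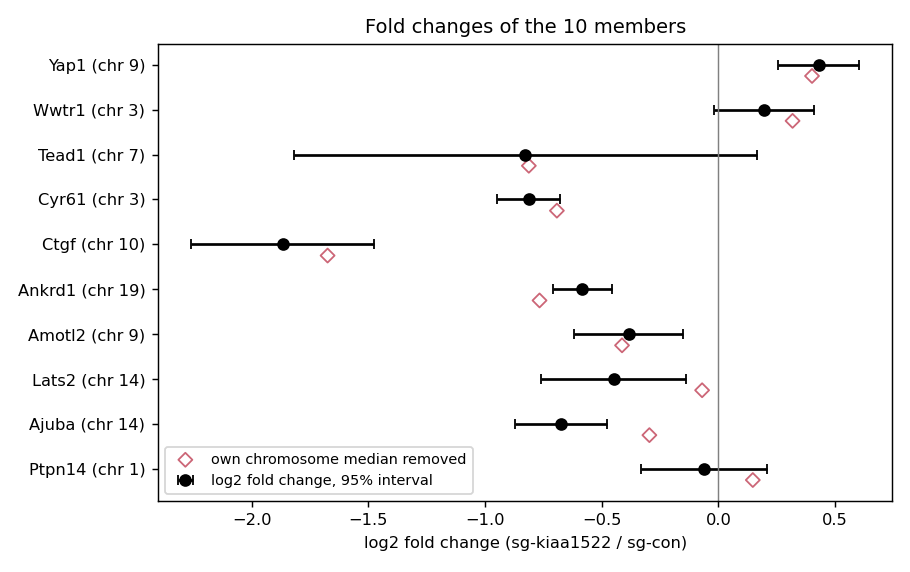
Log2 fold change (sg-kiaa1522/sg-con) of each member with its 95% interval (black) and after the median of the member's own chromosome was removed (red diamonds). Ctgf lies farthest from 0 at -1.87, Yap1 is on the other side at 0.43, and Lats2 moves to -0.070 when the median of chromosome 14 is removed.

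The coactivator genes were not lower. Yap1 had 138, 116 and 126 CPM in sg-con and 172.3, 172.2 and 166 CPM in the libraries labelled sg-kiaa1522. Each of the latter exceeded every sg-con library. Yap1 rose from 126 ± 10.8 to 170.2 ± 3.50 CPM (SD, n = 3), with log2FC 0.43 (SE 0.074, edgeR q = 0.0024), or 1.35-fold. Yap1 (ENSMUSG00000053110) lies on chromosome 9, chr9:7931999-8004596. Wwtr1 had 213, 186 and 170.2 CPM in sg-con and 215, 230.3 and 208 CPM in the libraries labelled sg-kiaa1522. The groups overlapped, because sg-con replicate 1 exceeded sg-kiaa1522 replicate 3. The log2FC of Wwtr1 was 0.20 (95% interval -0.018 to 0.41, edgeR q = 0.11). It passed the test without sg-con replicate 1 (0.28, edgeR q = 0.012) and against the median of chromosome 3 (0.32, edgeR q = 0.023). Per exon length, the summed level of Yap1 and Wwtr1 was 157, 130.1 and 125 TPM in sg-con and 173, 180.3 and 171 TPM in the libraries labelled sg-kiaa1522, without overlap.

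Tead1 was the least abundant member and the least even. It had 20.8, 17.2 and 55.6 CPM in sg-con and 19.0, 14.1 and 19.6 CPM in the libraries labelled sg-kiaa1522. Only sg-con replicate 3 stood apart, and the other 5 libraries lay between 14.1 and 20.8 CPM. The log2FC of Tead1 was -0.83 (95% interval -1.82 to 0.16, edgeR q = 0.14), and it was -0.12 without sg-con replicate 3 (edgeR q = 0.61). The other TEAD genes were more abundant per exon length. In sg-con they had 33.9 ± 1.86 (Tead2), 21.9 ± 1.18 (Tead3) and 19.5 ± 1.75 TPM (Tead4), against 5.87 ± 3.93 TPM for Tead1 (SD, n = 3). Tead2 passed narrowly, with log2FC 0.21 (SE 0.076, edgeR q = 0.0497), and did not pass in 11 of 14 alternative fits (q between 0.040 and 0.13). Tead4 rose by 0.30 (SE 0.083, edgeR q = 0.019) but did not pass in 5 of 14, the replicate block among them (q up to 0.080). Tead3 did not pass (0.15, SE 0.082, edgeR q = 0.17), and of 14 alternatives it passed in 1, against the median of its own chromosome (0.26, edgeR q = 0.031). The 4 genes together had 79.0, 80.5 and 84.0 TPM in sg-con and 98.3, 94.9 and 97.2 TPM in the libraries labelled sg-kiaa1522, so that the summed TEAD level was higher in each of the latter. With the mean transcript length the sums were 179 ± 9.08 and 203 ± 3.14 TPM (SD, n = 3).

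The members spanned a wide range of levels. In sg-con the order per exon length was Cyr61 (2097 ± 99.4 TPM), Ankrd1 (377 ± 9.23), Ctgf (171 ± 8.83), Wwtr1 (102 ± 13.99), Ajuba (99.1 ± 5.39), Amotl2 (67.5 ± 7.54), Yap1 (35.1 ± 3.75), Ptpn14 (20.3 ± 3.83), Lats2 (18.2 ± 3.62) and Tead1 (5.87 ± 3.93; SD, n = 3 each). Wwtr1 and Ajuba overlapped in that order, as did Ptpn14 and Lats2, and each other pair of neighbours was apart. In the libraries labelled sg-kiaa1522, Ctgf had moved from place 3 to place 7, at 50.04 ± 12.8 TPM, and there overlapped with Yap1 at 50.3 ± 0.392 TPM, which itself overlapped with Amotl2 at 55.2 ± 5.23 TPM (SD, n = 3). The first places belonged to Cyr61 and Ankrd1 in both groups, and the last to Tead1. With the mean transcript length in place of the summed exons, 6 of the 10 members kept their place in each group, and the places of Yap1, Amotl2, Ajuba and Wwtr1 depended on the length used.

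**Figure D4:**
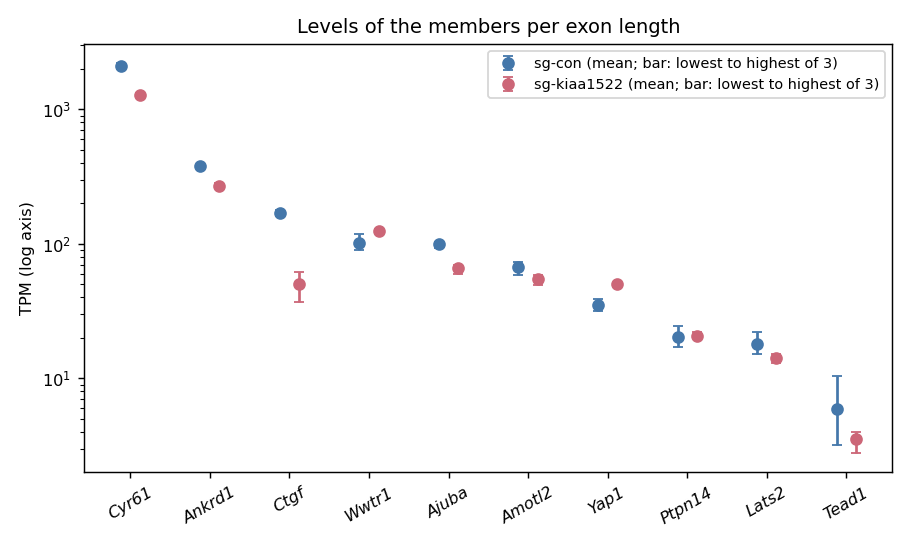
Mean TPM of the members on a log axis in sg-con (blue) and sg-kiaa1522 (red), with bars from the lowest to the highest of 3 libraries. Ctgf moves from place 3 to a level that overlaps with Yap1, and Cyr61 stays highest in both groups.

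The rest of the pathway was described from 49 further genes, of which 35 were tested. Of these, 3 were lower, 18 were higher and 14 did not pass the test, with a median log2FC of 0.26. Over all tested genes, 26.3% were lower and 26.3% were higher, 52.5% together. With 1 library left out, between 2 and 3 were lower and between 14 and 22 were higher, and blocking on the replicate number gave 2 lower and 15 higher. At the study's threshold, 0 were lower and 4 were higher, against 4.34% and 2.74% of all tested genes.

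The core kinase list holds the Hippo kinases and their adaptors. Of its 6 genes, 3 rose, 1 fell and 2 did not pass, which for so few genes is close to the 52.5% of all tested genes that passed. Stk4, which encodes the kinase MST1, rose from 22.3 ± 3.39 to 48.7 ± 2.44 CPM (SD, n = 3), with log2FC 1.13 (SE 0.12, edgeR q = 2.6e-04). Lats1, the paralogue of Lats2, rose (log2FC 0.59, SE 0.13, edgeR q = 0.0064), as did the scaffold gene Sav1 (0.44, SE 0.073, edgeR q = 0.0019), which shares 25.4% of its exon length with the antisense gene Atl1. Stk3, which encodes the related kinase MST2, fell (-0.28, SE 0.079, edgeR q = 0.020), though not with the replicate block (edgeR q = 0.077) or without sg-kiaa1522 replicate 1 (edgeR q = 0.059). The 2 MST genes thus changed in opposite directions, and so did the 2 LATS genes, but the falls of Stk3 and Lats2 were the ones that did not pass in every fit.

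Of 10 tested upstream regulators, 4 rose and 0 fell in edgeR (0 fell at an unadjusted p under 0.05 as well, and 0 by DESeq2), beside 26.3% of all tested genes in each direction and 52.5% together. Scrib, a polarity scaffold, had the largest rise (log2FC 0.52, SE 0.055, edgeR q = 2.6e-04), followed by the protocadherin Fat1 (0.49, SE 0.13, edgeR q = 0.015), the kinase gene Taok3 (0.35, SE 0.089, edgeR q = 0.013) and Nf2, which encodes merlin (0.26, SE 0.065, edgeR q = 0.011). Fat1 did not pass without sg-con replicate 2 (edgeR q = 0.055), nor Nf2 without sg-kiaa1522 replicate 3 (edgeR q = 0.051). The kinase genes Map4k4 (0.16, edgeR q = 0.098) and Taok1 (0.17, edgeR q = 0.22) did not pass, but both did without sg-con replicate 1 (edgeR q = 0.0073 and 0.0064), and Map4k4 also did against the median of its own chromosome (0.37, edgeR q = 0.0047). Fat4 and Dchs1 had 1 and 6 counts in all libraries together. Of the junction scaffolds, Limd1, a LIM protein like AJUBA, rose (0.27, SE 0.080, edgeR q = 0.025), but did not pass in 5 of 14 alternatives (q up to 0.092). Amotl1 did not pass (0.49, SE 0.18, edgeR q = 0.056) but did in edgeR's exact test (q = 0.042) and without sg-con replicate 1 (edgeR q = 0.023), and Amot and Wtip had 2 and 1 counts. Among the TEAD cofactors, Vgll4 did not pass (0.17, edgeR q = 0.17) except without sg-con replicate 1 (edgeR q = 0.024), and Vgll1, Vgll2 and Vgll3 had at most 1 count.

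The YAP/TAZ targets were divided in direction. A list of 22 YAP/TAZ target genes common to many cancers holds 6 of the members, and of its other 16 genes 11 were tested. Of these, 7 rose, 1 fell and 3 did not pass, with a median log2FC of 0.38, beside 26.3% of all tested genes in each direction. With the 6 members included, 17 genes of the list were tested, of which 7 rose, 6 fell and 4 did not pass. Nt5e, which encodes the surface nucleotidase CD73, rose most, from 7.79 ± 1.11 to 59.4 ± 6.24 CPM (SD, n = 3), with log2FC 2.93 (SE 0.13, edgeR q = 1.5e-05). Gadd45a, a stress-response gene, rose from 40.7 ± 5.27 to 114 ± 7.26 CPM (SD, n = 3), with log2FC 1.48 (SE 0.10, edgeR q = 6.6e-05). The antisense gene E230016M11Rik shares 19.1% of the exon length of Gadd45a.

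F3, which encodes tissue factor, rose as well (0.72, SE 0.11, edgeR q = 0.0011), and so did Myof, a membrane repair gene (0.56, SE 0.074, edgeR q = 7.4e-04). Tgfb2, Asap1 and Arhgef17 also rose, by between 0.38 and 0.50 on the log2 scale. Foxf2, a forkhead transcription factor gene, fell from 38.2 ± 0.768 to 28.5 ± 2.56 CPM (SD, n = 3), with log2FC -0.43 (SE 0.089, edgeR q = 0.0053). Axl (0.11), Crim1 (-0.058) and Dock5 (-0.051) did not pass the test, and Axl passed without sg-con replicate 1 (edgeR q = 0.046). Against the median of its own chromosome, chromosome 14, Dock5 had a log2FC of 0.33 (edgeR q = 0.0084), and Crim1 changed sign against that of its own (0.055). Ccdc80, under the filter, had 2, 2 and 4 counts in sg-con and 24, 47 and 45 in the libraries labelled sg-kiaa1522.

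**Figure D5:**
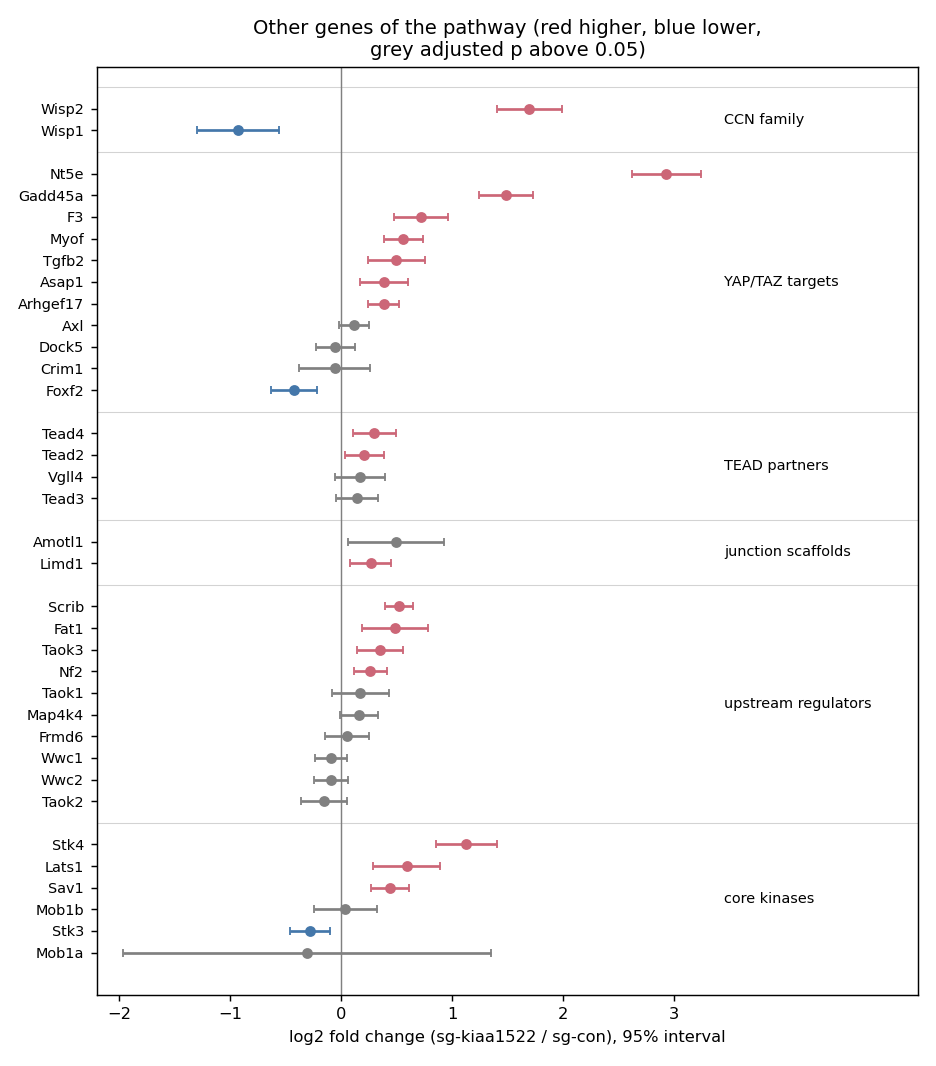
Log2 fold change (sg-kiaa1522/sg-con) with its 95% interval for the 35 tested genes of the rest of the pathway, grouped by list and coloured by direction where q was 0.05 or less. Most coloured points lie right of 0, with Nt5e farthest at 2.93, and Wisp1, Foxf2 and Stk3 are the 3 that lie left of it.

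The CCN family, to which Cyr61 and Ctgf belong, did not move as one. Wisp1 (Ccn4) had 15.0 ± 2.11 CPM in sg-con and 7.94 ± 1.21 CPM in the libraries labelled sg-kiaa1522 (SD, n = 3), and fell by 0.93 on the log2 scale (SE 0.16, edgeR q = 0.0022). Wisp2 (Ccn5), whose protein lacks the C-terminal domain of the other CCN proteins, rose from 11.4 ± 0.536 to 37.1 ± 5.37 CPM (SD, n = 3), with log2FC 1.70 (SE 0.12, edgeR q = 7.2e-05). Nov (Ccn3) had 2 counts and Wisp3 (Ccn6) had 0 counts in all libraries together.

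The tested genes whose pattern over the 6 libraries was most like that of Ctgf were Fosb, Cacna1g and Serpinb9. Likeness was the root mean square difference between log2 CPM profiles, each centred on its own mean, which was 0.066, 0.077 and 0.099. Fosb, which encodes an AP-1 subunit, had a log2FC of -1.86 (SE 0.15, edgeR q = 9.0e-05), against -1.87 for Ctgf. Because the 6 libraries form 2 groups, genes chosen by this likeness must have a log2FC near that of Ctgf. The closeness of the values is therefore not a separate result. None of these 3 genes lies on the chromosome of Ctgf.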

How the data were processed

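The deposited values are counts. Per the labels and the methods, the authors removed adaptors and rRNA reads (Seqtk), aligned the rest to GRCm38 (HISAT2 2.0.4) and made raw counts of uniquely mapped fragments per Ensembl gene with StringTie 1.3.0. The annotation release and strand setting are not given in the sources used here, so reads of overlapping antisense genes cannot be told apart.

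Genes were kept if their counts summed to more than 500, scaled by TMM, and compared with the quasi-likelihood test of edgeR 4.0.16 (R 4.3.3; no covariates), with Benjamini-Hochberg adjustment over all 10046 genes. Intervals are 95% intervals of the fit. The filter and the threshold on the log2 fold change are those of the study's methods. CPM used TMM library sizes, and TPM used summed exon lengths of GENCODE M21 on GRCm38, matched to 34267 genes. Coordinates come from the same annotation, and promoter sequences from RefSeq (GRCm38.p6). Of the 10 members, 8 and of the other pathway genes 34 had a promoter window. Libraries of 1 group differed by at least 12.3 in chi-square per degree of freedom, more than counting noise alone, so each was counted as a library of its own.

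The members and lists were chosen with earlier results of these data known. The lists were written from general knowledge. Named beside the members are, of each list, up to the 4 largest rises and falls that passed the test without overlap of the groups, all TEAD and CCN genes, and the 3 genes nearest to a member past the study's threshold. Other genes named (under the filter, not past the test, holding a motif, or further down a list) were chosen after their values were seen. The alternatives were DESeq2 1.42.0, 2 other filters, RLE size factors, edgeR's exact test, scaling by library size alone, the replicate number as a block, the chromosome median removed, each library left out, 2 other thresholds and another gene length. The test was also run on simulated counts in which every changed gene had a log2 fold change of 1 or more in either direction. That run does not bear on smaller changes, such as those of all members except Ctgf. A leukocyte marker is not reported here.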

Additional observations from a re-analysis of the deposited data

How the results depend on the processing

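The same 6 members were lower and the same member, Yap1, was higher under DESeq2, edgeR's exact test, RLE size factors, library size alone, both other filters and the replicate block. Against the median of their own chromosome, Lats2 (-0.070) did not pass, Wwtr1 passed (0.32) and Ptpn14 changed sign (0.15), so that 2 members were higher. With each library left out in turn, Lats2 ranged from -0.56 to -0.31, Amotl2 from -0.47 to -0.31, Wwtr1 from 0.12 to 0.28 and Ptpn14 from -0.16 to 0.068. The number of members lower ranged from 4 to 6 and of members higher from 1 to 2. Only the calls of Lats2 (without sg-kiaa1522 replicate 1 or 2), Amotl2 (without sg-kiaa1522 replicate 2) and Wwtr1 (without sg-con replicate 1) changed. The study's threshold, with a log2 fold change of 1 or more in either direction, left 1 member lower and 0 higher, 0 and 2 of the YAP/TAZ targets, 0 and 4 of all other pathway genes, and 436 and 275 of all tested genes. At an adjusted p of at most 0.01, 1812 of all tested genes were lower and 1731 higher, and 4 members were lower (Lats2 and Amotl2 no longer) and 1 higher. With the mean transcript length, 6 of the 10 members kept their place in the order of levels in sg-con and 6 in sg-kiaa1522. RLE size factors and library size alone changed no sign among the tested genes of the lists, and moved the median of all genes by at most 0.014 in size. With the replicate block, 2111 genes were lower and 2109 higher, against 2639 and 2638 without it, and Ctgf had a log2 fold change of -1.89 and Yap1 of 0.43. The deviations of same-numbered libraries had correlations across genes of -0.21, -0.051 and -0.17, none of them positive. Whether libraries of the same number shared a batch or a culture cannot be told from these values. The lowest depth was 12220001 counts, and each member had at least 231 counts in each library. Counts of a few reads are too low for a comparison. The causes of these changes were not tested.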

Other observations

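The adaptor gene Mob1a, a partner of the LATS kinases, varied more between libraries of 1 group than between the groups. It had 74.5, 342 and 362 CPM in sg-con replicates 1, 2 and 3 and 139, 412 and 76.6 CPM in sg-kiaa1522 replicates 1, 2 and 3. Its paralogue Mob1b was even, with 76.1 ± 12.5 CPM in sg-con and 78.1 ± 6.11 CPM in the libraries labelled sg-kiaa1522 (SD, n = 3). Tead1 was high in sg-con replicate 3 alone, 1 of the 3 libraries in which Mob1a was high.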
